A study of Mus musculus with 9 samples.

Results

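Translation initiation and elongation factors are the proteins that start and extend polypeptides on the ribosome. Their genes were taken from a count table of mouse liver RNA as the protein-coding rows whose symbol starts with Eif or Eef and a digit. The kinase and binding-protein genes Eif2ak, Eif4ebp and Eif4enif were left out, as were Eef2k and Eef2kmt, whose symbols start with Eef2k, and names ending in -ps. This gave 58 genes of 21703 rows, in 10 groups by factor complex.

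The c-Myc group was 3 livers of mice carrying R26-M2-rtTA and Col-TetOP-c-Myc-ires-mCherry, taken 48 h after doxycycline. The Mycl group was 3 livers of mice carrying R26-M2-rtTA and Col-TetOP-Mycl-ires-mCherry, taken at the same time after the same treatment. The no dox group was 3 livers with the Mycl genotype and no treatment. All 9 mice were C57BL/6J and 4 weeks old, and doxycycline was injected into the abdominal cavity as 0.2 ml at 2.0 mg/ml. Doxycycline lets the rtTA protein, made from the broadly active R26 locus, switch on the TetOP promoter, and that locus is not specific to hepatocytes. Livers given the drug without a responding transgene, and c-Myc mice left untreated, were not analysed here, so effects of drug, line and transgene cannot be told apart.

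Initiation begins when eIF2 brings the initiator tRNA to the small ribosomal subunit, helped by eIF1, eIF1A and the many-subunit scaffold eIF3. The cap-binding complex eIF4F loads mRNA, eIF2B recharges eIF2 with GTP, and eIF5, eIF5B and eIF6 act around subunit joining. During elongation eEF1A delivers aminoacyl-tRNA, the eEF1B proteins recharge it, eIF5A helps at difficult peptide bonds and eEF2 moves the ribosome along. MYC proteins bind DNA with MAX at E-boxes, whose core is CACGTG, and genes of protein synthesis are among their well-known targets.

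To show that core where it occurs near these genes, RefSeq windows of 300 bases (GRCm38.p6) reaching 250 bases upstream of each start site were searched for CACGTG, which reads the same on both strands. Of 44 factor genes with an entry, 12 held it, or 27.3%. Of all 27025 genes with RefSeq windows 8.09% did, and of 9988 genes tested here with an entry 11.6% did. The 12 were Eef1akmt4, Eef2, Eif1b, Eif3a, Eif3f, Eif3k, Eif4a1, Eif4e, Eif4g1, Eif4h, Eif5a and Eif5a2. The related core CACGCG, searched on both strands, was held by 18.2% of the 44 genes and 10.5% of all genes. The genes Eef1akmt1, Eef1akmt3, Eef1d, Eef1g, Eif1a, Eif2b3, Eif3e, Eif3h, Eif3i, Eif3j2, Eif4e1b, Eif4e3, Eif4g2 and Eif6 had no entry. A match is a description of the sequence, not of binding. Shown here are 60 bases of 5 of these windows, all upstream of the start site, with the core in capitals. The genes Eef1akmt4, Eif3f, Eif3k and Eif4a1 passed the test in c-Myc livers, and Eef2 did not. The Eef1akmt4 stretch also lies within the span of Alg3, a gene on the opposite strand.
Eef1akmt4, chr16:20611482-20611541, plus strand: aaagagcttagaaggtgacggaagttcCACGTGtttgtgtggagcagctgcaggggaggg
Eif3f, chr7:108934320-108934379, plus strand: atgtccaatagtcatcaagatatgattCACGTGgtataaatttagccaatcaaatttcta
Eif3k, chr7:28981900-28981959, minus strand: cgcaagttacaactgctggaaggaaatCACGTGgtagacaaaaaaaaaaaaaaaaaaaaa
Eif4a1, chr11:69672580-69672639, minus strand: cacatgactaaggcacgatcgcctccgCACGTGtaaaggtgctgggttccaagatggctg
Eef2, chr10:81176561-81176620, plus strand: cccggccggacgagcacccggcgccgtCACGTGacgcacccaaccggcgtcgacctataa

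Total counts were 14088780 to 16482480 in c-Myc livers, 11013412 to 18887413 in Mycl livers and 14043323 to 20079232 in no dox livers. Levels are given as CPM, counts scaled to a fixed total, with library sizes scaled by TMM. Myc itself had 214, 269.8 and 81.8 CPM in c-Myc livers, 4.61, 5.37 and 14.2 CPM in Mycl livers and 4.05, 7.02 and 12.7 CPM in no dox livers. Mycl had 5.70, 7.05 and 6.59 CPM in c-Myc livers, 49.1, 130.3 and 234 CPM in Mycl livers and 10.8, 11.6 and 11.46 CPM in no dox livers. Each transgene was thus high in its own line. The mCherry reporter stood at 221, 282 and 76.4 CPM in c-Myc livers, at 52.3, 146 and 269.8 CPM in Mycl livers and at 1.095, 0.316 and 0.318 CPM in no dox livers. All 6 hepatocyte markers were measured, with a summed level of 56300 to 92700 CPM in c-Myc livers, 71200 to 118000 CPM in Mycl livers and 113000 to 127000 CPM in no dox livers. The 4 proliferation markers summed to 143 to 309 CPM in c-Myc livers, 64.1 to 114 CPM in Mycl livers and 14.7 to 31.5 CPM in no dox livers, and all 4 rose in both induced lines. Neutrophil and monocyte markers summed to 14.8 to 26.3 CPM in c-Myc livers, 20.3 to 26.8 CPM in Mycl livers and 5.97 to 7.24 CPM in no dox livers, and 2 of the 5 tested, Ccr2 and Itgam, rose in both induced lines. Of 5 erythroid markers 4 were tested, and 4 fell in c-Myc livers and 0 passed in Mycl livers, with a sum of 48.1 to 98.5 CPM in c-Myc livers, 127 to 455 CPM in Mycl livers and 203 to 273 CPM in no dox livers. Kupffer cell markers summed to 163 to 246 CPM in c-Myc livers, 294 to 380 CPM in Mycl livers and 281 to 319 CPM in no dox livers, with 2 of 6 lower in c-Myc livers and 1, Marco, higher in Mycl livers. Stellate cell markers summed to 872 to 1750 CPM in c-Myc livers, 499 to 1080 CPM in Mycl livers and 535 to 674 CPM in no dox livers, with 2 of 6 higher in c-Myc livers and 0 in Mycl livers. These 6 did not move together: log2 fold changes in c-Myc livers ran from -0.65 to 2.84, and 4 were above 0. By edgeR 1 was lower there at an unadjusted p under 0.05. Of all genes 11.8% were called higher and 8.88% lower in c-Myc livers, and 2.24% and 0.964% in Mycl livers. Every marker on these lists had reads in at least 1 library. The part of these differences in the results below was not tested, and in whole liver fewer cells of a type and less RNA per cell cannot be told apart.

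Together the 58 genes took 1.35%, 1.57% and 1.26% of all counts in c-Myc livers. In Mycl livers the share was 1.61%, 0.939% and 1.12%, and in no dox livers 0.865%, 0.767% and 0.818%. Every induced liver was above every no dox liver, and Mycl replicate 1 was the highest of all. Eef1a1 and Eef2 had the highest CPM of these mRNAs. Eef1a1 alone gave 92779 of the 176846 factor counts in Mycl replicate 1 and 55091 of 173745 in no dox replicate 1. The summed share thus leans on this gene, which did not pass in c-Myc or Mycl livers.

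In c-Myc livers 17 of 55 tested factor genes were higher than in no dox livers and 0 were lower (edgeR quasi-likelihood test, adjusted p under 0.05 over 12651 genes). That is 30.9% of the factor genes, beside 11.8% of all tested genes called higher and 8.88% called lower. The 17 were Eef1g, Eif3l, Eif6, Eif3f, Eif5a, Eif2s3x, Eif3k, Eef1akmt4, Eef1b2, Eif3g, Eef1d, Eif1ad, Eif2b3, Eif4b, Eif3b, Eif4a1 and Eif2s1. At an unadjusted p under 0.05, 28 were higher (17.7% of all genes) and 1 was lower (17.2% of all genes), and DESeq2 and limma-voom called 0 lower as well. A fold change above 0 was seen for 49 of the 55 genes and for 45.2% of all genes. Their median log2 fold change was 0.46, and it was -0.05 over all tested genes. In 37 of the 55 genes every c-Myc liver was above every no dox liver (67.3%, beside 22.6% of all genes), and in 4 every one was below, beside 28.1% of all genes. The count changed when single libraries were left out: 10, 6 and 5 factor genes were higher without no dox replicates 1, 2 and 3. It was 7, 6 and 20 without c-Myc replicates 1, 2 and 3. The shares of all genes called in these fits are not given here, so these counts do not compare the factor genes with other genes. Eef1g, Eif3f, Eif3l, Eif5a and Eif6 were called each time.

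In Mycl livers 2 factor genes, Eef1g and Eef1b2, were higher than in no dox livers and 0 were lower by the same edgeR test. That is 3.64% of the 55 genes, beside 2.24% of all genes called higher and 0.964% called lower. At an unadjusted p under 0.05, 16 were higher (11% of all genes) and 0 were lower (9.06% of all genes), and DESeq2 and limma-voom called 0 lower. A fold change above 0 was seen for 43 of the 55 genes and 50.8% of all genes, with medians of 0.21 and 0.01 on the log2 scale. Every Mycl liver was above every no dox liver for 13 genes (23.6%, beside 13.2% of all genes) and below for 1 (16.2% of all genes). Both calls were lost without any 1 of the no dox libraries and without Mycl replicate 3, when 0 factor genes passed. Without Mycl replicate 2 there were 6 higher and without Mycl replicate 1 the same 2. The c-Myc and Mycl comparisons share the no dox livers.

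Between c-Myc and Mycl livers, 0 factor genes passed in either direction by edgeR, beside 4.14% of all genes called higher and 2.63% called lower in c-Myc livers. At an unadjusted p under 0.05, 12 were higher (14% of all genes) and 3 lower (13% of all genes) in c-Myc livers. A fold change above 0 was seen for 41 of the 55 genes and 47.3% of all genes. Every c-Myc liver was above every Mycl liver for 12 genes (13.7% of all genes) and below for 1 (12% of all genes). DESeq2 called 8 higher and 0 lower, and limma-voom 0 in both directions. Eif4b came nearest to the threshold, at 0.66 on the log2 scale (SE 0.18, edgeR adjusted p = 0.0577). By edgeR, leaving out Mycl replicates 1, 2 and 3 in turn gave 6, 0 and 1 genes higher, and leaving out c-Myc replicates 1, 2 and 3 gave 0, 0 and 4. Without Mycl replicate 1 the 6 were Eef1akmt4, Eif1ad, Eif1ax, Eif2b5, Eif3k and Eif5a, with log2 fold changes of 0.40 to 0.91 and edgeR adjusted p of 0.02495 to 0.0431. In that fit 4.58% of all genes were called higher. These counts do not show that the factor genes had equal levels in both lines. The heat map of all tested factor genes shows these differences liver by liver.

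**Figure D1:**
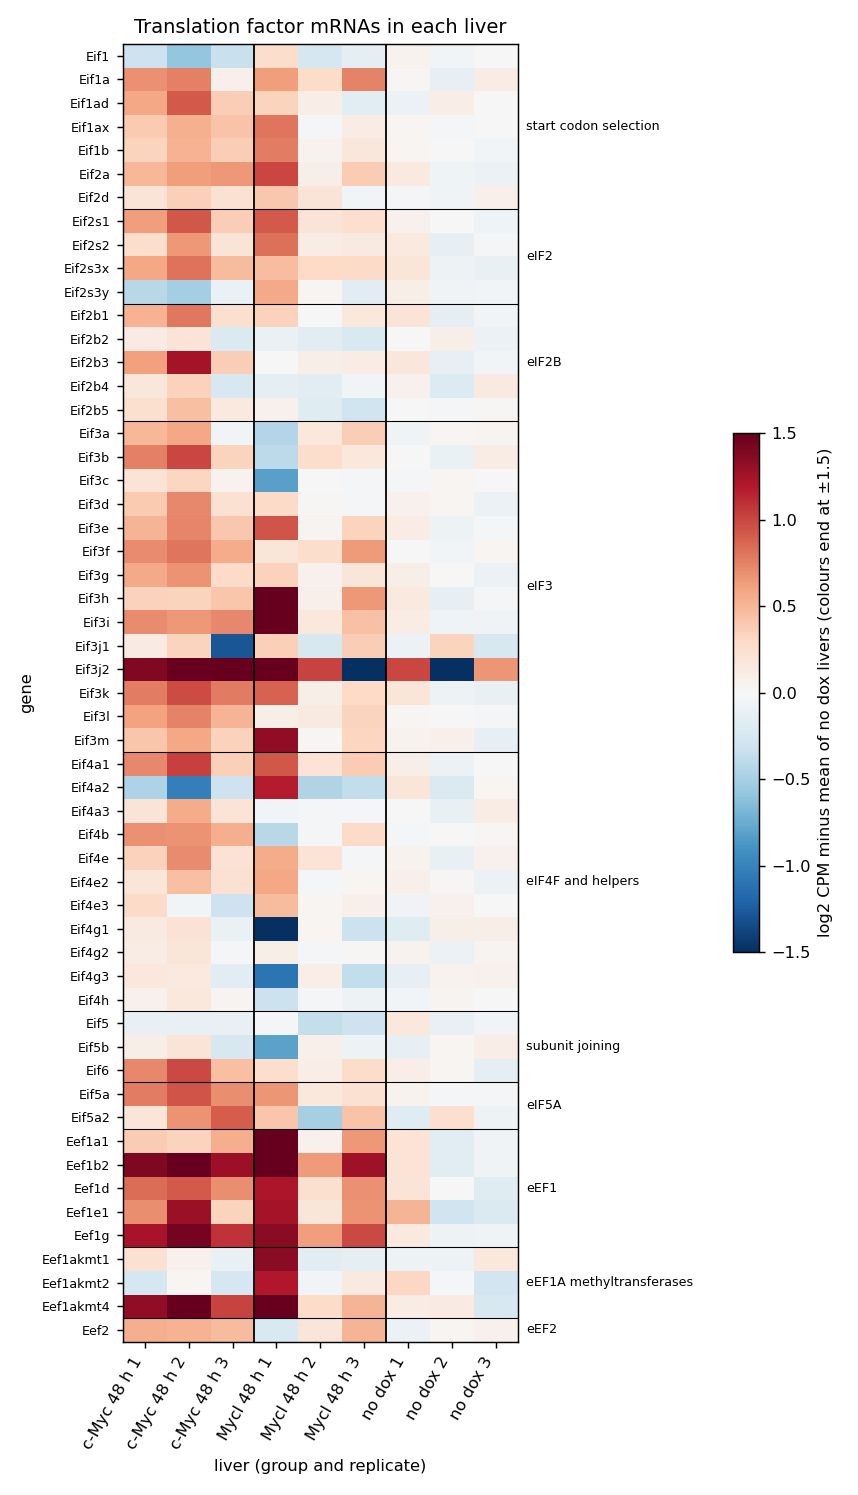
Log2 CPM of 55 translation factor genes in each of 9 livers, minus the mean of the no dox livers, with genes grouped by factor complex. Most rows are red in the 3 c-Myc livers, whereas Mycl replicate 1 holds both deep red and deep blue rows.

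Mycl replicate 1 stood apart from the other libraries by the size of its trend with transcript length. Among the 55 factor genes its deviation from the no dox mean had a Spearman correlation of -0.515 with the longest coding transcript. The other 8 libraries ranged from -0.408, in no dox replicate 1, to 0.304. The points are genes of 1 library and are not independent. Among genes that are not translation factors, those under 1000 nt had a median deviation of 1.20 on the log2 scale in that liver, and those of 4000 nt or more had -0.28. In the other 5 induced livers the same medians were between -0.04 and 0.12 for short genes and between -0.14 and -0.02 for long ones. For no dox replicate 1 they were 0.12 and -0.05. The part of this trend in each gene's value was not tested singly. Without Mycl replicate 1 the sign of the Mycl over no dox value turned for 9 factor genes, Eef1akmt1, Eif2s3y, Eif3c, Eif3j2, Eif4a2, Eif4a3, Eif4b, Eif4h and Eif5b. That of c-Myc over Mycl turned for 6, Eef1a1, Eef1akmt1, Eef1b2, Eif2s2, Eif3i and Eif3m. By edgeR, 0 of these values passed with or without that liver.

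**Figure D2:**
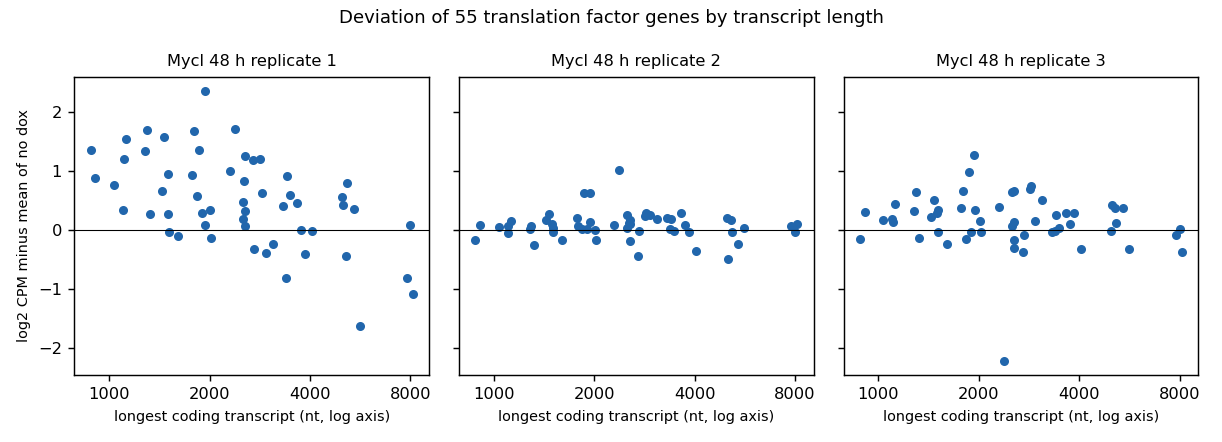
Log2 CPM of 55 translation factor genes minus the mean of the no dox livers, against longest coding transcript length on a log axis, in the 3 Mycl livers. In replicate 1 the deviation is smaller at longer lengths (Spearman correlation -0.515). Its median is 0.85 for the 20 genes of 1000 to 2000 nt and 0.04 for the 10 of 4000 nt or more. The correlation is -0.016 in replicate 2 and -0.2 in replicate 3. The same medians are 0.07 and 0.00 in replicate 2, and 0.30 and 0.00 in replicate 3.

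By library, the median deviation of the 55 genes was 0.40, 0.63 and 0.33 in c-Myc livers, 0.46, 0.08 and 0.16 in Mycl livers and 0.05, -0.04 and -0.02 in no dox livers. The medians over all tested genes lay between -0.05 and 0.01. Among c-Myc livers, replicate 3 had the lowest reporter level and the lowest median. Among Mycl livers, replicate 1 had the lowest reporter level and the highest median.

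The group named here for start codon selection holds 7 genes, Eif1, Eif1a, Eif1ad, Eif1ax, Eif1b, Eif2a and Eif2d, and not all of them act in that step. In c-Myc livers 1 rose (14.3%, beside 11.8% of all genes) and in Mycl livers 0 (beside 2.24%). Eif1ad, named for its eIF1A-like domain and known in human cells from small subunit maturation, stood at 24.3, 30.9 and 21.0 CPM in c-Myc livers, 20.4, 17.4 and 14.5 CPM in Mycl livers and 15.3, 17.3 and 16.2 CPM in no dox livers. Every c-Myc liver was above every other liver. Its log2 fold change in c-Myc livers was 0.64 (SE 0.18, edgeR adjusted p = 0.0300), and the call was lost without any 1 of the no dox libraries or c-Myc replicate 1 or 2. It overlaps Banf1 on the opposite strand, and 14.3% of its 75-base stretches also occur in a transcript of that gene.

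Eif1 encodes eIF1, which keeps the scanning ribosome from starting at the wrong codon. It had 106, 88.3 and 105 CPM in c-Myc livers, 159, 111 and 121 CPM in Mycl livers and 137, 128 and 131 CPM in no dox livers. All c-Myc livers were below all no dox livers, and the log2 difference of -0.40 (SE 0.16) did not pass (edgeR adjusted p = 0.101). It was called lower when the 6 libraries compared were fitted alone and with the length trend removed. Its paralog Eif1b had 14.1, 16.1 and 14.4 CPM in c-Myc livers, 19.1, 11.6 and 12.6 CPM in Mycl livers and 11.4, 11.2 and 10.9 CPM in no dox livers. All induced livers were above all no dox livers, and neither comparison passed. As a ratio of counts, Eif1b was 0.133, 0.182 and 0.137 of Eif1 in c-Myc livers, 0.120, 0.105 and 0.104 in Mycl livers and 0.0834, 0.0874 and 0.0829 in no dox livers. The ratio did not overlap between any pair of groups, and it was not tested. Of the 75-base stretches of Eif1, 25.6% occur in transcripts of other genes.

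Eif1a and Eif1ax both encode eIF1A. Eif1a had 89.2, 93.9 and 58.3 CPM in c-Myc livers, 85.7, 67.2 and 92.9 CPM in Mycl livers and 56.0, 50.6 and 59.7 CPM in no dox livers. The Mycl livers lay above the no dox livers, and c-Myc replicate 3 did not. Eif1ax had 65.7, 72.4 and 67.3 CPM in c-Myc livers, 87.3, 48.9 and 54.0 CPM in Mycl livers and 50.8, 48.9 and 50.04 CPM in no dox livers. Neither passed in any comparison. Eif2a and Eif2d, which act in other routes of initiation, had log2 fold changes of 0.59 (SE 0.21) and 0.26 (SE 0.14) in c-Myc livers and did not pass.

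Of the 4 genes of eIF2, 2 rose in c-Myc livers (beside 11.8% of all genes) and 0 in Mycl livers (beside 2.24%). Eif2s1, the alpha subunit that stress kinases phosphorylate, had 57.5, 71.2 and 48.2 CPM in c-Myc livers, 70.7, 42.7 and 44.5 CPM in Mycl livers and 39.2, 37.2 and 35.7 CPM in no dox livers. All induced livers lay above all no dox livers. In c-Myc livers the log2 fold change was 0.66 (SE 0.21, edgeR adjusted p = 0.0494), just inside the threshold; it was not called by limma-voom or without any 1 of the no dox libraries or c-Myc replicate 1 or 2. Eif2s2, the beta subunit, had a log2 fold change of 0.38 (SE 0.21) in c-Myc livers and did not pass.

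The gamma subunit of eIF2 binds the initiator tRNA and has an X-linked gene, Eif2s3x, and a Y-linked gene, Eif2s3y, in mice. Eif2s3x had 25.2, 29.6 and 23.3 CPM in c-Myc livers, 23.1, 20.6 and 20.4 CPM in Mycl livers and 19.0, 15.9 and 15.5 CPM in no dox livers. The 3 groups did not overlap. It differed on the log2 scale by 0.63 (SE 0.14, edgeR adjusted p = 0.0143) in c-Myc livers and 0.34 (SE 0.15, edgeR adjusted p = 0.221) in Mycl livers; the first was lost without no dox replicate 2 or 3. Eif2s3y had 30.3, 28.5 and 37.7 CPM in c-Myc livers, 60.4, 41.2 and 36.3 CPM in Mycl livers and 43.0, 39.2 and 39.5 CPM in no dox livers. It was present in all 9 livers, and the c-Myc livers lay below the no dox livers. Its log2 fold change in c-Myc livers was -0.34 (SE 0.19) and did not pass (edgeR adjusted p = 0.242). The count of Eif2s3y was 1.21, 0.963 and 1.62 times that of Eif2s3x in c-Myc livers, 2.61, 2.01 and 1.78 times in Mycl livers and 2.27, 2.46 and 2.54 times in no dox livers. The c-Myc ratios lay below all others, and this was not tested. Of the 75-base stretches of Eif2s3x, 35.7% occur in transcripts of 2 other genes.

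The exchange factor of eIF2, eIF2B, has 5 genes. In c-Myc livers 1 rose (20.0%, beside 11.8% of all genes) and in Mycl livers 0 (beside 2.24%). Eif2b3, a subunit of its catalytic part, had 10.9, 16.9 and 9.11 CPM in c-Myc livers, 7.05, 7.48 and 7.62 CPM in Mycl livers and 7.94, 6.45 and 6.84 CPM in no dox livers. All c-Myc livers lay above all others, with replicate 2 the highest. In c-Myc livers the log2 fold change was 0.80 (SE 0.22, edgeR adjusted p = 0.0314) and was lost without any 1 of the no dox libraries or c-Myc replicate 1 or 2. Eif2b5, the catalytic subunit and the eIF2B gene with the highest level per length, had 52.0, 60.2 and 48.8 CPM in c-Myc livers, 46.2, 38.9 and 35.8 CPM in Mycl livers and 44.3, 43.5 and 44.6 CPM in no dox livers. It did not pass against no dox livers (edgeR adjusted p = 0.161). The other 3 had log2 fold changes of 0.04 to 0.53 in c-Myc livers.

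The eIF3 complex had 14 genes. In c-Myc livers 5 rose (35.7%, beside 11.8% of all genes), in Mycl livers 0 rose (beside 2.24%), and 0 fell in either. For 12 of the 14 genes every c-Myc liver was above every no dox liver, beside 22.6% of all genes, and the median log2 fold change was 0.54. Their summed level was 1490, 1638 and 1290 CPM in c-Myc livers, 1378, 1126 and 1267 CPM in Mycl livers and 1060, 1024 and 1035 CPM in no dox livers. All induced livers lay above all no dox livers.

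Eif3l (ENSMUSG00000033047; chromosome 15, 79075179 to 79094405, GRCm38) had 146, 159.9 and 136 CPM in c-Myc livers, 102, 105 and 121 CPM in Mycl livers and 97.2, 95.0 and 94.8 CPM in no dox livers. No group overlapped another. It differed on the log2 scale by 0.62 (SE 0.13, edgeR adjusted p = 0.00874) in c-Myc livers and 0.19 (SE 0.13, edgeR adjusted p = 0.422) in Mycl livers. Between c-Myc and Mycl livers it was 0.43 (SE 0.13, edgeR adjusted p = 0.0720).

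Eif3f (ENSMUSG00000031029; chromosome 7, 108934417 to 108942951) had 103, 109 and 92.1 CPM in c-Myc livers, 70.7, 74.9 and 97.1 CPM in Mycl livers and 62.8, 60.9 and 63.8 CPM in no dox livers. All induced livers were above all no dox livers. In log2 terms the difference was 0.70 (SE 0.15, edgeR adjusted p = 0.00917) in c-Myc livers and 0.37 (SE 0.15, edgeR adjusted p = 0.190) in Mycl livers. Its promoter window holds the CACGTG core printed above.

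Eif3k, on chromosome 7 and also with the core in its window, had 57.1, 66.1 and 57.6 CPM in c-Myc livers, 61.7, 35.6 and 41.2 CPM in Mycl livers and 38.0, 31.8 and 30.9 CPM in no dox livers. Its c-Myc livers were all above its no dox livers, and Mycl replicate 2 was not. The log2 fold change in c-Myc livers was 0.84 (SE 0.20, edgeR adjusted p = 0.0149), lost without c-Myc replicate 2 or no dox replicate 2 or 3. Eif3g rose by 0.52 on the log2 scale (SE 0.14, edgeR adjusted p = 0.0253), lost without c-Myc replicate 1 or 2 or no dox replicate 2 or 3. The core subunit gene Eif3b had 0.72 (SE 0.21, edgeR adjusted p = 0.0375). Eif3b lost this call with limma-voom or a block for replicate number. It also lost it without c-Myc replicate 1 or 2 and without any 1 of the no dox libraries. Its neighbours in the core, Eif3a and Eif3c, had 0.37 (SE 0.23) and 0.20 (SE 0.21) and did not pass.

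Among eIF3 mRNAs Eif3i had the highest level per length, at 98.9 CPM per kb in c-Myc livers, 109.8 in Mycl livers and 61.2 in no dox livers. In CPM it had 113, 107 and 113 in c-Myc livers, 200.4, 76.4 and 93.0 in Mycl livers and 74.1, 65.7 and 66.3 in no dox livers. All induced livers were above all no dox livers and neither comparison passed. Eif3h, Eif3i and Eif3m had log2 fold changes of 0.96, 0.84 and 0.67 in Mycl livers and of 0.44, 0.36 and 0.23 without Mycl replicate 1, and none of the 3 passed in either fit.

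Eif3j1 and Eif3j2 encode the loosely attached eIF3 subunit and share sequence. Eif3j2 had 5.11, 6.69 and 8.52 CPM in c-Myc livers, 6.42, 3.90 and 0.305 CPM in Mycl livers and 3.89, 0.506 and 3.02 CPM in no dox livers. Mycl replicate 3 and no dox replicate 2 were more than an order of magnitude below the highest livers. Eif3j1 had 14.1, 16.3 and 5.26 CPM in c-Myc livers, 16.6, 10.95 and 16.7 CPM in Mycl livers and 12.2, 16.3 and 10.9 CPM in no dox livers, with c-Myc replicate 3 the lowest. The lowest Eif3j1 value thus came from the liver with the highest Eif3j2 value. Of the 75-base stretches of Eif3j2, 87.4% occur in transcripts of other genes, Eif3j1 first among them, so the counts of this pair are uncertain. Summed, the pair ran from 13.8 to 23.0 CPM in c-Myc livers, 14.9 to 23.0 CPM in Mycl livers and 13.9 to 16.8 CPM in no dox livers, and the groups overlapped.

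**Figure D3:**
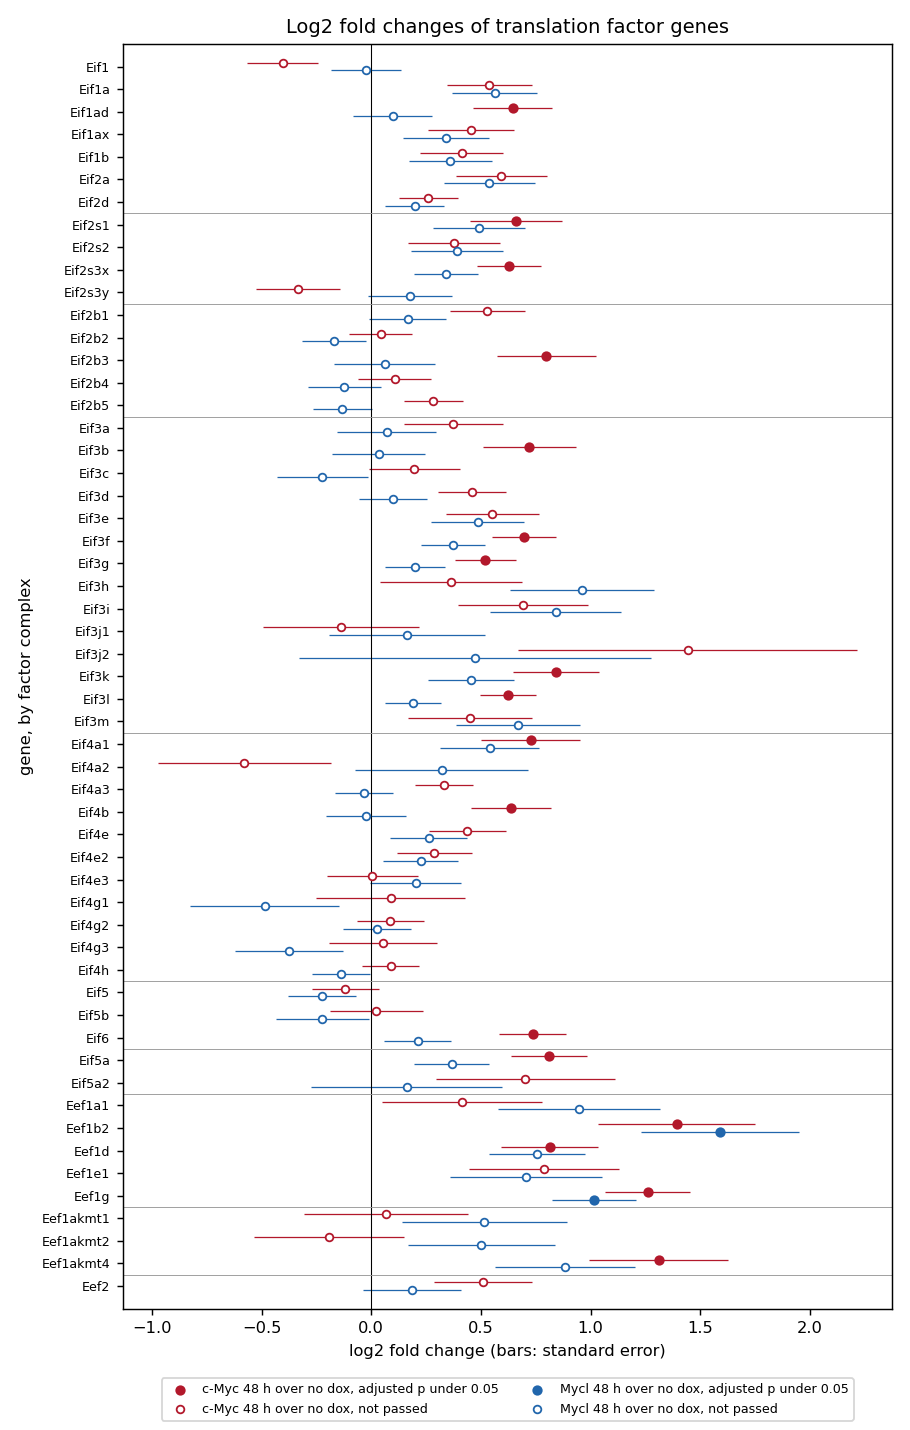
Log2 fold changes with standard errors of 55 translation factor genes, in rows by factor complex, for c-Myc over no dox (red) and Mycl over no dox (blue). Filled points passed an adjusted p under 0.05, 17 for c-Myc and 2 for Mycl, and both comparisons share the no dox livers.

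The eIF4F complex and its helpers had 12 genes, 11 of them tested. In c-Myc livers 2 rose (18.2%, beside 11.8% of all genes) and in Mycl livers 0 (beside 2.24%). Median log2 fold changes of the 11 were 0.09 in c-Myc livers and 0.02 in Mycl livers. Eif4b, which stimulates the helicase, had 428, 426 and 391 CPM in c-Myc livers, 200.4, 262 and 325 CPM in Mycl livers and 264, 267 and 269.5 CPM in no dox livers. All c-Myc livers were above all others, and the Mycl livers lay on both sides of the no dox livers. Its log2 fold change in c-Myc livers was 0.64 (SE 0.18, edgeR adjusted p = 0.0337). This call was lost with a block for replicate number and without any 1 of the no dox libraries or c-Myc replicate 1 or 2. Eif4h, a related helper, had 0.09 (SE 0.13) and did not pass.

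The helicase of the complex is encoded by Eif4a1 and Eif4a2, and Eif4a3 encodes a relative in the exon junction complex. Eif4a1 (ENSMUSG00000059796; chromosome 11, 69666936 to 69672423) had 300.4, 371 and 232 CPM in c-Myc livers, 347, 210.2 and 236 CPM in Mycl livers and 193, 171 and 182 CPM in no dox livers. All induced livers were above all no dox livers. As a log2 fold change this was 0.73 (SE 0.23, edgeR adjusted p = 0.0460) in c-Myc livers and 0.54 (SE 0.23, edgeR adjusted p = 0.218) in Mycl livers. Eif4a1 lost the c-Myc call with limma-voom or a block for replicate number. It also lost it without c-Myc replicate 1 or 2 and without any 1 of the no dox libraries. Of its 75-base stretches 62.9% occur in transcripts of 4 other genes, so its level is uncertain.

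Eif4a2 had 128, 86.4 and 141 CPM in c-Myc livers, 398, 129 and 137 CPM in Mycl livers and 199.7, 152 and 179 CPM in no dox livers. The c-Myc livers were all below the no dox livers, as were Mycl replicates 2 and 3, and Mycl replicate 1 was far above. The log2 fold change was -0.58 (SE 0.39, edgeR adjusted p = 0.330) in c-Myc livers. In Mycl livers it was 0.32 (SE 0.39) with all libraries and -0.36 (SE 0.20, edgeR adjusted p = 0.358) without Mycl replicate 1, so its sign rests on that liver. The count of Eif4a2 was 0.425, 0.233 and 0.609 of that of Eif4a1 in c-Myc livers, 1.15, 0.614 and 0.578 in Mycl livers and 1.04, 0.888 and 0.982 in no dox livers. Both the c-Myc livers and Mycl replicates 2 and 3 lay below all no dox livers, and the ratio was not tested. Eif4a3 had a log2 fold change of 0.33 (SE 0.13) in c-Myc livers and did not pass.

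**Figure D4:**
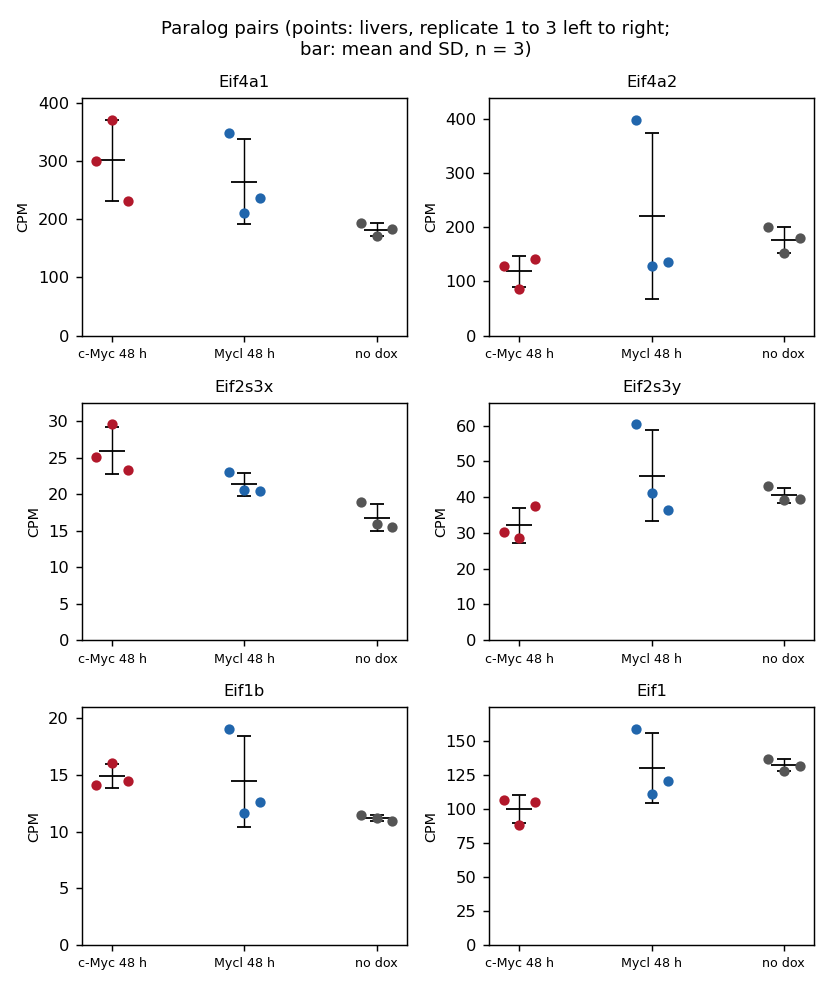
CPM of Eif4a1 and Eif4a2, Eif2s3x and Eif2s3y, and Eif1b and Eif1 in each liver (points), with mean and SD of 3 livers per group. In every row the c-Myc livers lie above the no dox livers in the left panel and below them in the right panel, and Eif4a1 and Eif2s3x passed the test in c-Myc livers. These are not all the paralog pairs: Eif1a and Eif1ax, Eif4e and Eif4e2, and Eif5a and Eif5a2 did not split this way.

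The scaffold gene Eif4g1 had 748, 794 and 637 CPM in c-Myc livers, 222, 696 and 546 CPM in Mycl livers and 599.8, 726 and 724 CPM in no dox livers. Mycl replicate 1 was the lowest of all and the c-Myc livers overlapped the no dox livers. On the log2 scale the change was 0.09 (SE 0.34) in c-Myc livers and -0.49 (SE 0.34) in Mycl livers, or -0.08 (SE 0.17) without Mycl replicate 1. Eif4g3, another long scaffold mRNA, had 0.05 (SE 0.25) in c-Myc livers, and in Mycl livers -0.37 (SE 0.25) or -0.06 (SE 0.16) without replicate 1. Eif4g2, a relative that does not bind the cap-binding protein, had 0.09 (SE 0.15) in c-Myc livers and 0.02 (SE 0.15) in Mycl livers. None of the 3 passed.

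Cap-binding genes did not pass in any comparison. Eif4e, the cap-binding subunit, had 43.7, 56.3 and 40.2 CPM in c-Myc livers, 50.6, 39.8 and 34.1 CPM in Mycl livers and 35.6, 32.0 and 36.0 CPM in no dox livers. Its c-Myc livers were above its no dox livers, at 0.44 on the log2 scale (SE 0.18, edgeR adjusted p = 0.105). Eif4e2, whose protein binds caps without recruiting the scaffold, had 0.29 (SE 0.17), and Eif4e3 0.01 (SE 0.21). Eif4e1b had 0 counts in all 9 livers.

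Around subunit joining, Eif6 rose in c-Myc livers and Eif5 and Eif5b did not pass. Eif6 keeps the large subunit apart from the small one and is needed to make large subunits. Eif6 (ENSMUSG00000027613; chromosome 2, 155819832 to 155826925) had 70.6, 84.9 and 58.1 CPM in c-Myc livers, 51.2, 45.6 and 51.9 CPM in Mycl livers and 45.9, 43.6 and 38.8 CPM in no dox livers. All c-Myc livers were above all others. It differed on the log2 scale by 0.74 (SE 0.15, edgeR adjusted p = 0.00888) in c-Myc livers and 0.21 (SE 0.15, edgeR adjusted p = 0.451) in Mycl livers, and 0.52 (SE 0.15, edgeR adjusted p = 0.0677) between the induced lines. Eif5, which makes eIF2 hydrolyse its GTP, had 309.8, 312 and 310.2 CPM in c-Myc livers, 333, 262 and 270.1 CPM in Mycl livers and 373, 312 and 325 CPM in no dox livers. The c-Myc livers were the most uniform, and its log2 fold change there was -0.12 (SE 0.15). Eif5b, a long mRNA for the factor that joins the subunits, had 0.02 (SE 0.21) in c-Myc livers, and in Mycl livers -0.22 (SE 0.21) or 0.05 (SE 0.14) without replicate 1.

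Eif5a (ENSMUSG00000078812; chromosome 11, 69916714 to 69921958) encodes the factor that carries hypusine, an amino acid made from spermidine. It had 437, 493 and 416 CPM in c-Myc livers, 404, 287 and 299.6 CPM in Mycl livers and 265, 250.3 and 253 CPM in no dox livers. The 3 groups did not overlap. In log2 terms the difference was 0.81 (SE 0.17, edgeR adjusted p = 0.00992) in c-Myc livers, 0.37 (SE 0.17, edgeR adjusted p = 0.266) in Mycl livers and 0.44 (SE 0.17, edgeR adjusted p = 0.136) between the induced lines. The last passed without Mycl replicate 1, at 0.61 (SE 0.13, edgeR adjusted p = 0.0275), and DESeq2 also called it. Its paralog Eif5a2 was at 0.598, 0.888 and 1.06 CPM in c-Myc livers, 0.723, 0.325 and 0.731 CPM in Mycl livers and 0.438, 0.633 and 0.477 CPM in no dox livers. That is 6 to 17 counts a library, and the groups overlapped.

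The eEF1 complex had 6 genes, of which 5 were tested. In c-Myc livers 3 rose (beside 11.8% of all genes) and in Mycl livers 2 (beside 2.24%). All 5 had a fold change above 0 in both comparisons, with a median log2 fold change of 0.81 in c-Myc livers and 0.95 in Mycl livers, or -0.05 and 0.01 over all genes. Without Mycl replicate 1 the Mycl median was 0.53, below the c-Myc median. Of the 17 genes called in c-Myc livers, Eef1b2 of this complex had the largest fold change.

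Eef1b2 encodes the exchange factor that recharges eEF1A (ENSMUSG00000025967; chromosome 1, 63176825 to 63180486). It had 336, 362 and 311 CPM in c-Myc livers, 655, 198 and 308 CPM in Mycl livers and 148, 115 and 123 CPM in no dox livers. All induced livers were above all no dox livers. The log2 fold change was 1.39 (SE 0.36, edgeR adjusted p = 0.0227) in c-Myc livers, lost without any 1 of the no dox libraries or c-Myc replicate 1 or 2. In Mycl livers it was 1.59 (SE 0.36, edgeR adjusted p = 0.0441), and 1.03 (SE 0.19, edgeR adjusted p = 0.0204) without Mycl replicate 1. It was not called there by limma-voom, with the 6 libraries fitted alone or with a block for replicate number.

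Eef1g, a structural partner in the exchange complex (ENSMUSG00000071644; chromosome 19, 8967041 to 8978479), had 179, 206 and 161 CPM in c-Myc livers, 194, 118 and 150.4 CPM in Mycl livers and 83.7, 71.9 and 72.5 CPM in no dox livers. The lowest induced liver was above the highest no dox liver. The change on the log2 scale was 1.26 (SE 0.19, edgeR adjusted p = 0.00209) in c-Myc livers and 1.02 (SE 0.19, edgeR adjusted p = 0.0255) in Mycl livers, or 0.87 (SE 0.15, edgeR adjusted p = 0.0169) without Mycl replicate 1. Between the induced lines it was 0.24 (SE 0.19, edgeR adjusted p = 0.432). Of its 75-base stretches 56.5% occur in transcripts of 4 other genes, so its level is uncertain. Eef1d, a further exchange factor, had 88.0, 92.7 and 79.6 CPM in c-Myc livers, 114, 58.0 and 79.2 CPM in Mycl livers and 56.0, 48.7 and 43.4 CPM in no dox livers. It rose in c-Myc livers by 0.81 on the log2 scale (SE 0.22, edgeR adjusted p = 0.0272), lost without c-Myc replicate 1 or 2 or no dox replicate 2 or 3. In Mycl livers it had 0.76 (SE 0.22, edgeR adjusted p = 0.0923).

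Eef1a1, the eEF1A gene of most tissues, had 3404, 3316 and 3820 CPM in c-Myc livers, 8383, 2754 and 4129 CPM in Mycl livers and 3015, 2358 and 2539 CPM in no dox livers. The c-Myc livers were above the no dox livers, and Mycl replicate 2 lay among the no dox livers. On the log2 scale the change was 0.41 (SE 0.37, edgeR adjusted p = 0.459) in c-Myc livers. In Mycl livers it was 0.95 (SE 0.37, edgeR adjusted p = 0.189), and 0.44 (SE 0.22, edgeR adjusted p = 0.306) without Mycl replicate 1. It was the highest of the factor mRNAs per length, at 1958 CPM per kb in c-Myc livers, 2836 in Mycl livers and 1470 in no dox livers, and 41.7% of its 75-base stretches occur in transcripts of other genes. Eef1a2, the form of muscle and neurons, had 1 count in c-Myc replicate 3 and 0 in the other 8 livers. Eef1e1, which also belongs to the multi-synthetase complex, had 0.79 (SE 0.34) in c-Myc livers and 0.70 (SE 0.35) in Mycl livers and did not pass.

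**Figure D5:**
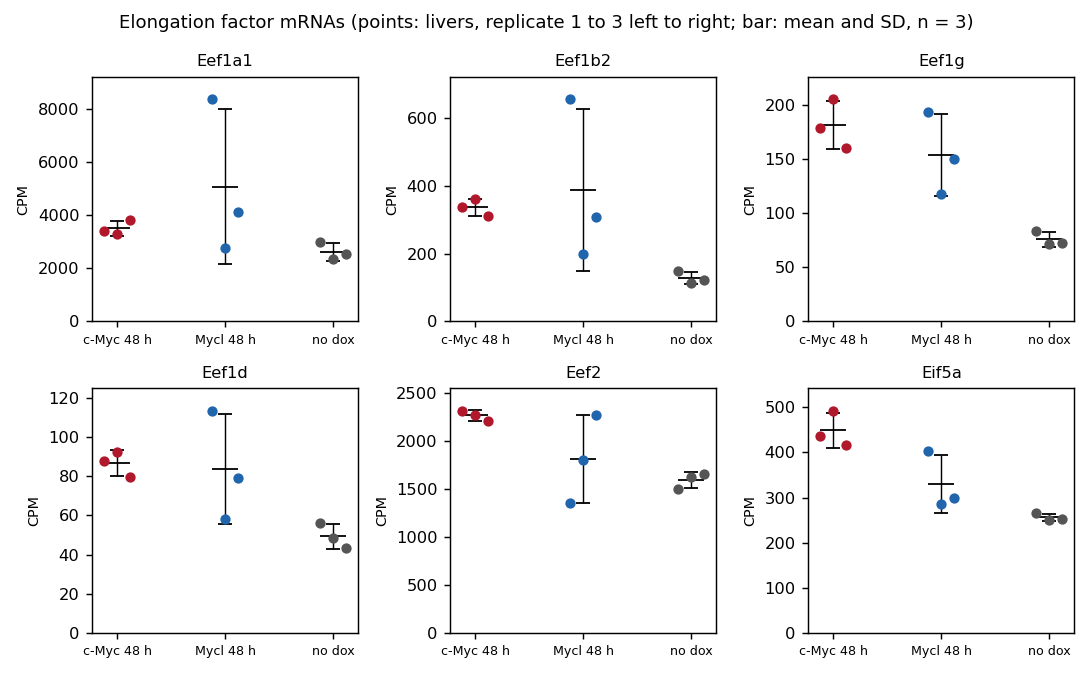
CPM of Eef1a1, Eef1b2, Eef1g, Eef1d, Eef2 and Eif5a in each liver (points), with mean and SD of 3 livers per group. The c-Myc livers lie above the no dox livers in all 6 panels, and Mycl replicate 1 is the highest liver for Eef1a1 at 8383 CPM and for Eef1b2 at 655 CPM.

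Of the 4 methyltransferase genes of eEF1A, 3 were tested. In c-Myc livers 1 rose (33.3%, beside 11.8% of all genes) and in Mycl livers 0 (beside 2.24%). Eef1akmt4 had 16.8, 19.3 and 13.4 CPM in c-Myc livers, 19.9, 8.03 and 9.44 CPM in Mycl livers and 7.17, 7.21 and 5.57 CPM in no dox livers. All induced livers were above all no dox livers. It differed on the log2 scale by 1.31 (SE 0.32, edgeR adjusted p = 0.0174) in c-Myc livers, lost without c-Myc replicate 1 or 2 or no dox replicate 3. Of its 75-base stretches 31.2% occur in transcripts of Gm49333 or Alg3, which makes its count uncertain. Eef1akmt3 was at 0 to 7 counts a library and was not tested.

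Eef2, which moves the ribosome by a codon, had 2317, 2276 and 2209 CPM in c-Myc livers, 1357, 1804 and 2275 CPM in Mycl livers and 1498, 1624 and 1658 CPM in no dox livers. The c-Myc livers were above the no dox livers by more than the spread within either group, and the Mycl livers ran from below the no dox livers up to the c-Myc level. The log2 fold change of 0.51 (SE 0.22) in c-Myc livers did not pass over all genes (edgeR adjusted p = 0.133). It was 0.19 (SE 0.22) in Mycl livers, and 0.41 (SE 0.17, edgeR adjusted p = 0.211) without Mycl replicate 1. DESeq2, library totals and a fit of the 6 libraries alone called Eef2 higher in c-Myc livers.

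Factor genes whose promoter window held CACGTG included 5 of 12 called higher in c-Myc livers, or 41.7%, beside 14.9% of the 1160 tested genes with the core. Of the 31 tested factor genes with an entry and no core 8 were called, or 25.8%, beside 11% of the 8828 tested genes of that kind, and 4 called genes had no entry. The median log2 fold change in c-Myc livers was 0.60 for the 12 with the core and 0.38 for the tested factor genes with an entry and no core. These medians are descriptions and were not tested.

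Regulators of these factors were taken as a list of 44 genes, of which 43 were found and tested. In c-Myc livers 5 rose and 0 fell, or 11.6% called higher beside 11.8% of all genes, and the median log2 fold change was 0.10. In Mycl livers 0 passed by edgeR, with 3 higher and 3 lower at an unadjusted p under 0.05, beside 11% and 9.06% of all genes, and DESeq2 called 1 higher and 1 lower and limma-voom 0. The genes that rose in c-Myc livers were Pabpc4, Dph2, Pabpc1, Eef2kmt and Eef2k. Between c-Myc and Mycl livers 3 were higher (6.98%, beside 4.14% of all genes) and 1 was lower (2.33%, beside 2.63%). The count higher in c-Myc than in no dox livers was 14 with library totals, beside 25.1% of all genes, and 8, with 1 lower, with the 6 libraries alone. It was 7, with 2 lower, without c-Myc replicate 3, 3 without c-Myc replicate 1 or 2 or no dox replicate 3, and 4 without no dox replicate 1 or 2. In Mycl livers 3 were higher without Mycl replicate 1 and 2 without Mycl replicate 2. Between the induced lines 6 were higher without c-Myc replicate 3, 1 without Mycl replicate 3 and 0 without c-Myc replicate 1 or 2 or Mycl replicate 2, and with library totals there were 8.

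Pabpc4 and Pabpc1 encode poly(A)-binding proteins, which link mRNA tails to eIF4G. Pabpc4 had 123, 134 and 86.5 CPM in c-Myc livers, 31.0, 47.9 and 65.3 CPM in Mycl livers and 29.6, 27.7 and 28.3 CPM in no dox livers. The 3 groups did not overlap. The log2 fold change was 2.00 (SE 0.26, edgeR adjusted p = 0.000895) in c-Myc livers and 0.76 (SE 0.25, edgeR adjusted p = 0.131) in Mycl livers, and 1.25 (SE 0.25, edgeR adjusted p = 0.0255) between the induced lines. The last was lost with the 6 libraries fitted alone and without c-Myc replicate 1 or 2 or Mycl replicate 2. Pabpc1 rose by 1.20 (SE 0.26, edgeR adjusted p = 0.0101) in c-Myc livers.

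Eef2k encodes the kinase that inhibits eEF2. It had 21.2, 25.2 and 17.2 CPM in c-Myc livers, 10.9, 13.2 and 12.8 CPM in Mycl livers and 13.6, 15.6 and 12.4 CPM in no dox livers. All c-Myc livers were above all others. It rose by 0.61 (SE 0.17, edgeR adjusted p = 0.0309) over no dox livers and by 0.78 (SE 0.17, edgeR adjusted p = 0.0316) over Mycl livers. The first call was lost without c-Myc replicate 1 or 2 or no dox replicate 1 or 3, and the second with the 6 libraries fitted alone and without c-Myc replicate 1 or 2 or Mycl replicate 2 or 3. Dph2, an enzyme of the diphthamide that eEF2 carries, had 7.44, 10.9 and 4.19 CPM in c-Myc livers, 2.98, 2.55 and 3.35 CPM in Mycl livers and 2.35, 2.21 and 1.75 CPM in no dox livers. No group overlapped another, and it rose by 1.83 (SE 0.33, edgeR adjusted p = 0.00454) over no dox livers and by 1.35 (SE 0.32, edgeR adjusted p = 0.0371) over Mycl livers. The second call was lost with limma-voom, a block for replicate number or the 6 libraries fitted alone. It was also lost without c-Myc replicate 1 or 2 or Mycl replicate 2 or 3. Eef2kmt, the methyltransferase of eEF2, rose by 0.94 (SE 0.25, edgeR adjusted p = 0.0240) over no dox livers, lost without c-Myc replicate 1 or 2 or no dox replicate 2 or 3.

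Eif4ebp3, which encodes a protein that holds the cap-binding subunit away from its scaffold, was the only gene of the list called lower in c-Myc than in Mycl livers. It had 19.9, 13.2 and 13.6 CPM in c-Myc livers, 31.9, 20.9 and 52.4 CPM in Mycl livers and 15.5, 12.2 and 15.2 CPM in no dox livers. The Mycl livers were above all others. As a log2 fold change this was -1.17 (SE 0.30, edgeR adjusted p = 0.0475) for c-Myc over Mycl, lost with limma-voom, library totals, the length trend removed or the 6 libraries alone and without any 1 of the c-Myc libraries or Mycl replicate 3, and 1.29 (SE 0.31, edgeR adjusted p = 0.0508) for Mycl over no dox, which did not pass.

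A list of 20 genes of termination, recycling and mitochondrial translation had 1 gene that rose in c-Myc livers and 0 in Mycl livers, beside 11.8% and 2.24% of all genes called higher. In c-Myc livers the count was 3 with DESeq2, RLE scaling, upper-quartile scaling or the length trend removed, and 9 with library totals. Of all genes 15.1% were called higher with the length trend removed and 25.1% with library totals. The count was 5 higher and 1 lower with the 6 libraries alone, 2 without c-Myc replicate 3 and 0 without any other 1 of the 6 libraries. The gene called by edgeR was Abce1, which splits ribosomes after termination, with 176, 207 and 139 CPM in c-Myc livers, 120.2, 134 and 127 CPM in Mycl livers and 115, 105 and 115 CPM in no dox livers. The 3 groups did not overlap, and the log2 fold change in c-Myc livers was 0.64 (SE 0.16, edgeR adjusted p = 0.0204), lost without c-Myc replicate 1 or 2 or any single no dox library. At an unadjusted p under 0.05, 1 gene of the list was higher in Mycl livers, beside 11% of all genes. Between c-Myc and Mycl livers 0 passed by edgeR, beside 4.14% of all genes called higher. At the unadjusted cut 2 were higher there, beside 14% of all genes. DESeq2 called 0 for Mycl over no dox and 2 higher for c-Myc over Mycl, and limma-voom called 0 in both.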

How the data were processed

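Liver RNA of 9 mice was made into directional libraries, per the labels' protocols. The authors deposited 1 table of raw counts, whole numbers per gene with no scaling. The submitters' processing notes name cutadapt 3.0 and STAR 2.7.8a, build mm10, HTSeq 0.11.2, and also DESeq2 1.30.0. Neither the annotation release nor the strand setting is stated in the sources used here. Reads of overlapping genes on opposite strands may therefore not be separated, and genes that share sequence with pseudogenes may lose or gain reads.

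Symbols matched 21574 of 21703 rows, and GENCODE M21 (GRCm38, the assembly of mm10) gave gene positions and lengths. Of the 58 factor genes, 55 passed filterByExpr at a minimum count of 10. The 3 that did not were Eef1a2, Eef1akmt3 and Eif4e1b. In R 4.3.3, edgeR 4.0.16 was fitted by quasi-likelihood to all 9 libraries with TMM scaling and 6 residual degrees of freedom, and p-values were adjusted by Benjamini-Hochberg over 12651 genes. CPM values are per 1e+06 scaled counts, and per-length levels divide by the longest coding transcript in kb. The standard error is the log2 fold change divided by the square root of F. Deviations per library use log2 CPM with a prior count of 2. Sequence sharing was measured as the percent of 75-base stretches of the longest coding transcript found in GENCODE transcripts of other genes.

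Each test was tried on simulated data without a length trend. Of 2-fold changes 44.3% to 46.0% were recovered, and of 4-fold changes 91.3% to 92.0%, with 5.00% to 6.12% of calls false. Smaller changes were not simulated, so a gene that did not pass may still have changed. The number of livers limits precision, and nothing in the labels says more of how replicates were raised. The p-values therefore weigh differences between groups against the spread between these samples.

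Genes named with values were, per comparison and direction, the 8 called factor genes with the smallest adjusted p, the gene with the highest level per length in each complex, paralog pairs and genes not tested, with up to 4 called genes a comparison from each of the regulator and termination lists; further factor genes were named after their values were seen. Members and lists were chosen with earlier results of these data known. Alternatives were other scalings, filters, DESeq2 1.42.0, limma-voom (limma 3.58.1), 6-library fits, a replicate block, removal of the length trend and leaving out each library.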

Additional observations from a re-analysis of the deposited data

How the results depend on the processing

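The count of factor genes higher in c-Myc than in no dox livers was 17 as reported, beside 11.8% of all genes. It was 35 with library totals, beside 25.1% of all genes, and 24 with the length trend removed, beside 15.1%. DESeq2 gave 23, limma-voom 14 and the 6 libraries compared fitted alone 35, and leaving out single libraries gave 5 to 20. Library totals moved the median of all genes from -0.05 to 0.31 and the share of higher calls among all genes from 57.0% to 90.4%; the median of the factor genes was then 0.82. With the 6 libraries alone and with the length trend removed, 1 factor gene, Eif1, was called lower. The count higher in Mycl livers was 2 as reported, 5 with DESeq2, 1 with limma-voom, 1 with the 6 libraries alone, 1 with the replicate block, and 0 to 6 without single libraries. Of all genes 0.133% to 4.21% were called higher without single libraries, beside 2.24% as reported. The count higher in c-Myc than in Mycl livers was 0 as reported, 10 with library totals, 8 with DESeq2, 6 with the length trend removed, and 0 to 6 without single libraries. Library totals gave 86.7% higher calls among all genes in this comparison, in place of 61.1%, and 83.2% in place of 69.9% for Mycl over no dox. The other scalings, no filter and a minimum count of 50 kept each count within 1.5 times, and no called log2 fold change changed sign under any alternative. The cause of these differences was not tested. Correlations of deviations between same-numbered livers ran from -0.187 to 0.314, the highest between replicates 1 of no dox and Mycl. Between differently numbered livers they ran from -0.271 to 0.188. With 3 livers a group these values cannot tell whether replicate numbers pair the livers. With the replicate block 14, 1 and 0 factor genes were higher in c-Myc over no dox, Mycl over no dox and c-Myc over Mycl. The block lost the c-Myc calls of Eif3b, Eif4a1 and Eif4b, the Mycl call of Eef1b2 and the Dph2 call between the induced lines. Depth limits Eif5a2 and Eef1akmt3.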
